A study of Mus musculus with 6 samples.

Results

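The carbonic anhydrases were described across 6 RNA-seq libraries of cardiac progenitor (CP) cells derived from mouse embryonic stem cells, 3 labelled Zhx1-KO and 3 of 46C-Ctrl. The rule took 10 genes by symbol (Car2, Car3, Car4, Car7, Car8, Car9, Car11, Car12, Car13 and Car14), and all 10 had a row among the 25701 genes in the table. The members were chosen by family and by symbol with their normalized counts in these same 6 libraries known, so their differences between the groups are given as a description, with no p-value. Of the 10 members, 9 passed the filter on low values (the 6 libraries had to average 10 or more), as did 15372 genes in all. Car7 did not pass it.

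Both groups came from 46C, a mouse embryonic stem cell line, and polyA RNA was sequenced after directed differentiation to the CP stage. The libraries labelled Zhx1-KO are, by their labels, from cells with a knockout of Zhx1, a zinc finger and homeobox gene, which the study made with CRISPR/Cas9, and the 46C-Ctrl libraries are labelled as the control genotype. The labels do not say how many clones, cultures or differentiations stand behind the 3 libraries of a group, so the errors here measure the spread between libraries, which may be technical.

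Carbonic anhydrases are zinc enzymes that turn CO2 and water into bicarbonate and a proton, and back again. Cytosolic members (Car2, Car3, Car7, Car13) act on the pH inside the cell, membrane-bound members (Car4, Car9, Car12, Car14) have their active site on the outer face of the plasma membrane, and the carbonic anhydrase-related proteins (Car8, Car11) have lost catalytic activity. Bicarbonate and protons made by these enzymes are carried across membranes by bicarbonate, proton and lactate transporters, and Car9 is known as a target of the hypoxia-inducible factors.

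The RefSeq promoter table (GRCm38.p6) matched 6 of the 10 members. The stretch upstream of the start is printed for the 4 membrane-bound members, because Car4 was lower under the Zhx1-KO label while Car12, Car14 and, less firmly, Car9 were higher. Each is written 5′ to 3′ on the strand of the gene, and capitals mark matches, on either strand, to 4 motifs. These were the core of the hypoxia response element, ACGTG or its reverse complement CACGT; the GC box, GGGCGG or its reverse complement CCGCCC; the CCAAT box, read as ATTGG on the other strand; and the TATA box, TATAAA or its reverse complement TTTATA. None of these motifs contains another. For Car9 the last 60 of the 250 bases, which lie inside the annotated gene, are not shown.
Car4, chr11:84957504-84957753, strand +: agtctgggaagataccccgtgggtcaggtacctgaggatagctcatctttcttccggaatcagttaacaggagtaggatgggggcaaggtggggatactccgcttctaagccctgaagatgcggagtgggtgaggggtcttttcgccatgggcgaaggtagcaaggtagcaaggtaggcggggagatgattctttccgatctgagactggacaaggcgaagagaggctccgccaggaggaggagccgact
Car9, chr4:43506776-43506965, strand +: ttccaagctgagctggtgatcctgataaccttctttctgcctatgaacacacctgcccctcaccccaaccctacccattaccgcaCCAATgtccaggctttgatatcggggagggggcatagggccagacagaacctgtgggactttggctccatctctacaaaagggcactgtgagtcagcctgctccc
Car12, chr9:66713436-66713685, strand +: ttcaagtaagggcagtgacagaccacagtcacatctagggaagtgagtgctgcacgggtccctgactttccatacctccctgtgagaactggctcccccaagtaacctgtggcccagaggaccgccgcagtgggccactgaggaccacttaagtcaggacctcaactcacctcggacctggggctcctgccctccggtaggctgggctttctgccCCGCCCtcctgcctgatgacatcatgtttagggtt
Car14, chr3:95904686-95904935, strand -: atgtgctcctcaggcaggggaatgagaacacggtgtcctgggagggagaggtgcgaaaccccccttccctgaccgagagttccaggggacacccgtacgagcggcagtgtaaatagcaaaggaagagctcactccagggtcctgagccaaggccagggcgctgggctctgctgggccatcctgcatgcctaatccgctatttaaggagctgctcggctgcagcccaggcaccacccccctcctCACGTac

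None of the 4 motifs was found in the 250 bases before the start of Car4. The window of Car14 held CACGT, starting 7 bases before the RefSeq start, and the last 6 bases of this window lie inside the annotated gene. The whole window of Car9 held CCAAT 165 bases and CACGT 18 bases before the start, the last of these in the stretch not shown. Car12 held CCGCCC 35 bases before its start. Over all 32851 RefSeq entries, the 250 bases before the start held ACGTG in 16.6%, GGGCGG in 32.7%, CCAAT in 33.8% and TATAAA in 12.4%, counted on both strands. A match describes the letters only.

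The values are gene counts that were scaled with 1 factor for each library, here called normalized counts. Undoing the scaling gave sums of 13769967 to 15940874 per library, though whole reads are not taken as recovered for 2 libraries. Zhx1 itself was at 225, 325 and 308 normalized counts in the libraries labelled Zhx1-KO, against 460, 181 and 457 in 46C-Ctrl, so its transcript level does not check the labels (log2 fold change -0.25 ± 0.35, SE, limma adjusted p = 0.579). Adjusted p for Zhx1 was 0.0113 without 46C-Ctrl 2, the library that stood apart, with 2.77% of its counts from mitochondrial genes against 1.72 to 1.87% in the other 5. The Y-linked gene Ddx3y was listed at 0 in the 3 libraries labelled Zhx1-KO, against 603, 715 and 615 normalized counts in 46C-Ctrl. Over the 11 tested genes of the Y chromosome the median log2 fold change was -0.72. This difference between the groups cannot be told apart from that of the labels. Listed zeros are read with care, since 27 genes in the libraries labelled Zhx1-KO and 40 genes in 46C-Ctrl were at 0 in 1 library while a second library of that group had at least 100. The CP label was checked against 6 CP genes. Their summed level was 1081 to 1159 normalized counts in the libraries labelled Zhx1-KO and 7770 to 8527 in 46C-Ctrl. Most of the 46C-Ctrl sum came from Hand1, with means of 198 in the libraries labelled Zhx1-KO and 5774 in 46C-Ctrl. By limma at an adjusted p under 0.05, 5 of the 6 were lower and none higher. Of all genes tested, 26.4% were lower and 25.6% higher. Nkx2-5 averaged 327 in the libraries labelled Zhx1-KO and 575 in 46C-Ctrl. Isl1, at 179 and 209, did not pass. None of the 6 was at 0 in every library.

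The 2 carbonic anhydrases most abundant per kb in 46C-Ctrl, Car2 and Car4, were the 2 tested members whose level was lower under the Zhx1-KO label. Most other members were higher. Car2, the fast cytosolic enzyme known from red blood cells, osteoclasts and kidney, had 850, 780 and 789 normalized counts in the libraries labelled Zhx1-KO, against 5143, 5180 and 4965 in 46C-Ctrl. The highest library labelled Zhx1-KO was far below the lowest 46C-Ctrl library. The means were 806 ± 38.0 in the libraries labelled Zhx1-KO and 5096 ± 115 in 46C-Ctrl (SD, n = 3 each), a 6.32-fold lower level with a log2 fold change of -2.66 ± 0.05 (SE). In these bulk samples, fewer cells of a type and less RNA per cell cannot be told apart.

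Car4, which is held on the outer membrane face by a lipid anchor and is known from capillary endothelium, lung and kidney, had 1404, 1434 and 1465 normalized counts in the libraries labelled Zhx1-KO, against 6862, 7427 and 7331 in 46C-Ctrl. As for Car2, the groups did not overlap, and the libraries of each group lay close together. Car4 averaged 1434 ± 30.8 in the libraries labelled Zhx1-KO and 7207 ± 302 in 46C-Ctrl (SD, n = 3 each), 5.02-fold lower, with a log2 fold change of -2.33 ± 0.05 (SE). By log2 fold change, Car2 was the 262nd lowest and Car4 the 347th lowest of the 15372 genes tested, of which 479 (3.12%) had a log2 fold change under -2. Over 14 other settings the log2 fold change ranged from -2.70 to -2.57 for Car2 and from -2.36 to -2.20 for Car4.

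The ratio of Car4 to Car2 normalized counts, whose change between groups does not depend on gene length, was 1.65, 1.84 and 1.86 under the Zhx1-KO label, against 1.33, 1.43 and 1.48 in 46C-Ctrl. The ratio was higher in every library labelled Zhx1-KO than in any 46C-Ctrl library, as Car2 was lower by the larger factor.

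**Figure D1:**
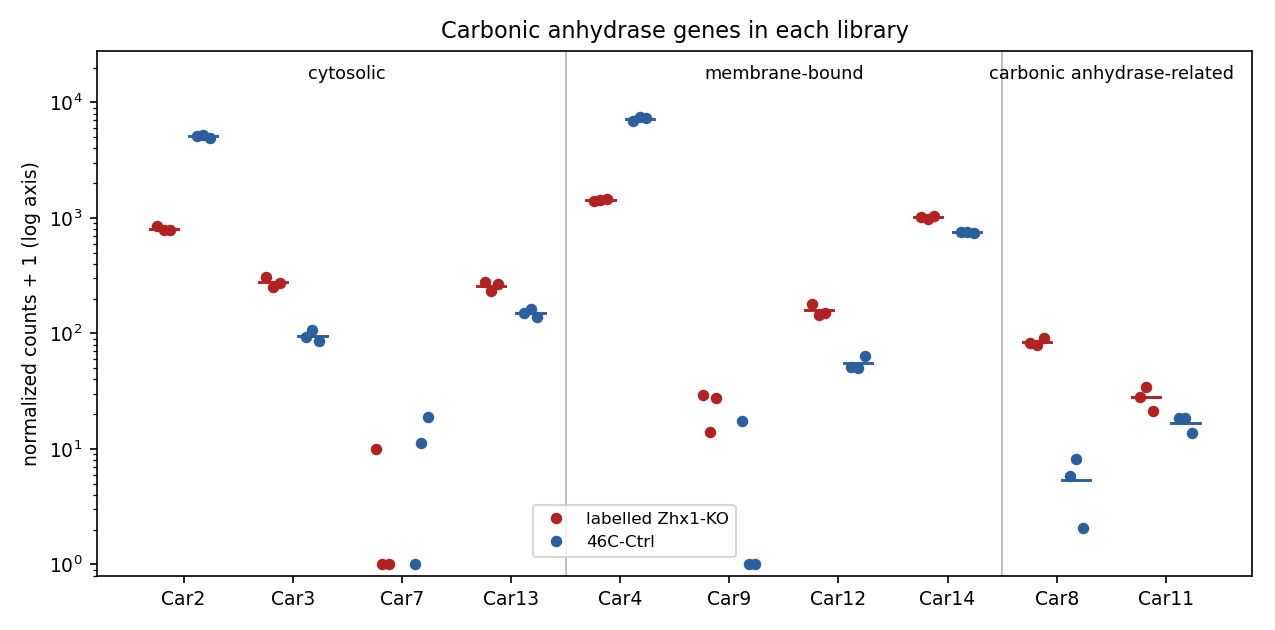
Normalized counts plus 1 (log axis) of the 10 carbonic anhydrase genes, grouped into cytosolic, membrane-bound and related members, with 1 point for each of the 3 libraries labelled Zhx1-KO (red, left) and the 3 of 46C-Ctrl (blue, right). Horizontal bars are group means and are left out for Car7 and Car9, which are listed at 0 in some libraries. Car2 and Car4 lie lower in the libraries labelled Zhx1-KO, and only Car7 and Car9 have overlapping groups.

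Of the other membrane-bound members, Car14 and Car12 were higher in all libraries labelled Zhx1-KO than in any of 46C-Ctrl, and the groups overlapped for Car9. Car14, a transmembrane enzyme, had 1015, 985 and 1043 normalized counts in the libraries labelled Zhx1-KO, against 756, 750 and 745 in 46C-Ctrl. Per kb it came next after Car4 and Car2 in 46C-Ctrl. The means of Car14 were 1014 ± 29.0 in the libraries labelled Zhx1-KO and 749.9 ± 5.65 in 46C-Ctrl (SD, n = 3 each), 1.35-fold higher, with a log2 fold change of 0.43 ± 0.06 (SE). Car14 lies on the minus strand of chromosome 3 (95897768 to 95904691, GRCm38) and overlaps the end of Aph1a, which runs on the other strand. Aph1a was lower, with a log2 fold change of -0.40 ± 0.06 (SE, limma adjusted p = 8.0e-04). The study's methods set the strand of the library in mapping and for FPKM, but whether the counts used here were made by strand is not given in those methods, and without strand the reads of such overlapping genes cannot be told apart.

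Car12, another transmembrane enzyme with an outward-facing active site, had 179, 145 and 149 normalized counts in the libraries labelled Zhx1-KO, against 50.7, 49.7 and 62.2 in 46C-Ctrl. All 3 libraries labelled Zhx1-KO were above all 3 of 46C-Ctrl. Car12 averaged 158 ± 19.0 in the libraries labelled Zhx1-KO and 54.2 ± 6.96 in 46C-Ctrl (SD, n = 3 each), 2.91-fold higher, with a log2 fold change of 1.52 ± 0.17 (SE). It lies on the plus strand of chromosome 9 (66713686 to 66766845), between Aph1b, with a log2 fold change of -0.21 ± 0.14 (SE, limma adjusted p = 0.254), and Usp3, with -0.38 ± 0.13 (SE, limma adjusted p = 0.0398).

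Car9, the transmembrane enzyme known for its induction under low oxygen, had 28.2, 13.1 and 26.4 normalized counts in the libraries labelled Zhx1-KO, while 46C-Ctrl had 16.6 in replicate 1 and was listed at 0 in replicates 2 and 3. The groups overlapped, since Zhx1-KO replicate 2 was below 46C-Ctrl replicate 1. Its fitted log2 fold change of 3.11 ± 1.12 (SE) depends on the pseudocount of 1, and it was 1.71 with a pseudocount of 5. Car9 was called higher in 4 of 13 other settings that tested it, and its call ended without 46C-Ctrl 2, without 46C-Ctrl 3 and when any 1 of the libraries labelled Zhx1-KO was left out. Its fitted log2 fold change ranged from 2.42, without 46C-Ctrl 2 or 3, to 4.49, without 46C-Ctrl 1. An antisense gene, Gm12454, overlaps Car9 on chromosome 4 (43506966 to 43513729), so its reads may be shared in the same way, and it averaged 50.4 ± 17.7 normalized counts in the libraries labelled Zhx1-KO and 23.8 ± 1.32 in 46C-Ctrl (SD, n = 3 each).

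Among the cytosolic members, Car3 and Car13 were higher in the libraries labelled Zhx1-KO while Car2 was lower. Car3, a low-activity enzyme known from skeletal muscle, fat and liver, had 308, 253 and 273 normalized counts in the libraries labelled Zhx1-KO, against 92.6, 106 and 84.4 in 46C-Ctrl. The groups did not overlap. Car3 averaged 278 ± 28.1 in the libraries labelled Zhx1-KO and 94.2 ± 10.7 in 46C-Ctrl (SD, n = 3 each), 2.95-fold higher, with a log2 fold change of 1.55 ± 0.14 (SE).

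Car13, a broadly expressed cytosolic enzyme, had 276, 231 and 266 normalized counts in the libraries labelled Zhx1-KO, against 148, 161 and 138 in 46C-Ctrl, again without overlap. Its means were 258 ± 23.9 in the libraries labelled Zhx1-KO and 149 ± 11.7 in 46C-Ctrl (SD, n = 3 each), 1.72-fold higher, with a log2 fold change of 0.78 ± 0.12 (SE). The remaining cytosolic member was hardly detected. Car7, a cytosolic enzyme best known from neurons, had 9.07 normalized counts in Zhx1-KO replicate 1 and was listed at 0 in replicates 2 and 3, against 0, 10.4 and 17.9 in 46C-Ctrl. Car7 was near the floor of these libraries in both groups, the groups overlapped, and it was not tested.

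Car13, Car1, Car3 and Car2 lie next to each other on chromosome 3, and the tested members of this cluster went in different directions. Car3 (14863512 to 14872523) ends 13750 bases before Car2 (14886273 to 14900770), both on the plus strand of GRCm38, and Car13 (14641727 to 14663002) starts 244.5 kb before Car2. The neighbouring tested genes on the Car13 side, E2f5 and Lrrcc1, had log2 fold changes of 0.13 ± 0.08 and -0.23 ± 0.14 (SE), and neither passed limma's test at an adjusted p under 0.05. On the far side of Car2 the nearest tested gene, Ythdf3, starts 1297 kb away and was lower, with a log2 fold change of -0.62 ± 0.08 (SE, limma adjusted p = 3.9e-04). Car1, between Car13 and Car3, was listed at 0 in all libraries except 46C-Ctrl 2, which had 2.07 normalized counts. The chromosome 3 median over 747 tested genes was a log2 fold change of 0.02.

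**Figure D2:**
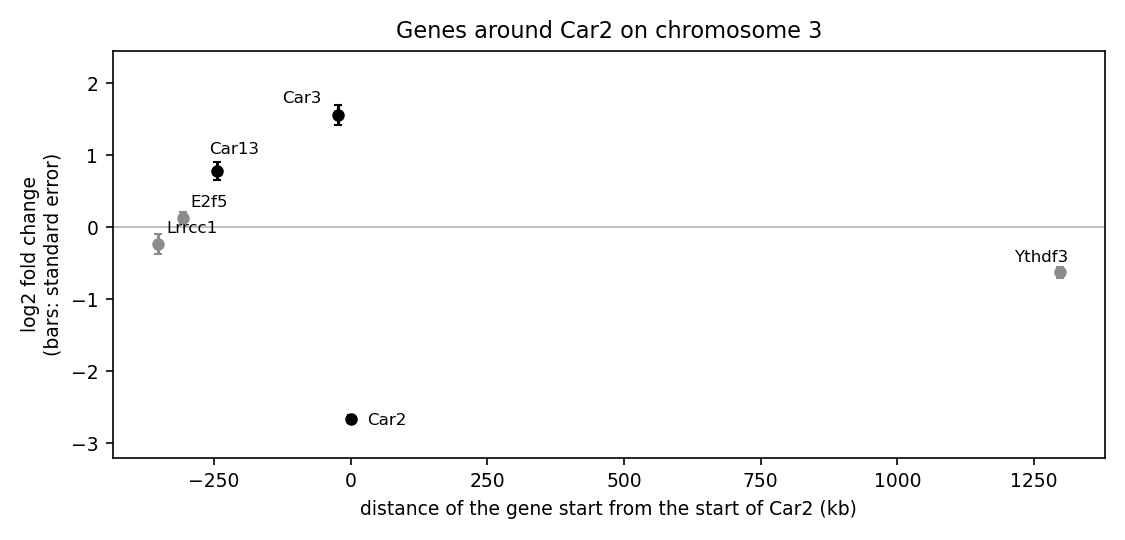
Log2 fold change (libraries labelled Zhx1-KO over 46C-Ctrl, bars: standard error) of the tested genes around Car2 on chromosome 3, by distance of the gene start from that of Car2 in kb, with members in black and other genes in grey. Car2 lies at -2.66 while Car3, 22.8 kb away, lies at 1.55 and Car13 at 0.78.

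Car4 is the only member on chromosome 11 (84957786 to 84966044), where the median log2 fold change over 1185 tested genes was 0.42, against medians of -0.04 to 0.02 on the other chromosomes that carry members. Car4 was therefore lower on a chromosome whose tested genes were, in the median, higher in the libraries labelled Zhx1-KO. Its tested neighbours were Znhit3, with a log2 fold change of 0.40 ± 0.10 (SE, limma adjusted p = 0.0102), and Usp32, with 0.00 ± 0.08 (SE, limma adjusted p = 0.989).

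Both carbonic anhydrase-related members had higher means in the libraries labelled Zhx1-KO. Car8, which binds the inositol trisphosphate receptor in cerebellar Purkinje cells, had 81.6, 77.9 and 89.8 normalized counts in the libraries labelled Zhx1-KO, against 4.88, 7.25 and 1.05 in 46C-Ctrl. Every 46C-Ctrl library was close to the floor, and the groups did not overlap. Car8 averaged 83.1 ± 6.09 in the libraries labelled Zhx1-KO and 4.39 ± 3.12 in 46C-Ctrl (SD, n = 3 each), 18.9-fold higher. Its log2 fold change, 4.18 ± 0.52 (SE), was the 94th highest of the 15372 genes tested, and it was 3.29 with a pseudocount of 5. Of the tested genes beside Car8 on chromosome 4 (8143362 to 8239041), Tox was higher, with a log2 fold change of 1.24 ± 0.18 (SE, limma adjusted p = 9.6e-04), and Rab2a had -0.08 ± 0.06 (SE, limma adjusted p = 0.299).

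Car11, a secreted related protein known from brain, had 27.2, 33.4 and 20.2 normalized counts in the libraries labelled Zhx1-KO, against 17.6, 17.6 and 12.7 in 46C-Ctrl. The groups were close but did not overlap. Its means were 26.9 ± 6.57 in the libraries labelled Zhx1-KO and 15.9 ± 2.84 in 46C-Ctrl (SD, n = 3 each), with a log2 fold change of 0.71 ± 0.33 (SE), and it was the only tested member that was not called. It was called in 1 of 13 other settings, the fit without the mean trend. Beside it on chromosome 7 (45699843 to 45704682), Rasip1, a regulator of endothelial tube formation, was higher, with a log2 fold change of 2.63 ± 0.12 (SE, limma adjusted p = 2.5e-06), and Dbp had 0.11 ± 0.16 (SE, limma adjusted p = 0.585).

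Of the 9 tested members, 6 were called higher and 2 lower at an adjusted p under 0.05, where 25.6% of all genes tested were called higher, 26.4% were called lower and 52.0% either way. The groups did not overlap for 8 of the 9 tested members, against 60.8% of all genes tested. Since the members were chosen with these values known, nothing is read from the counts. The median log2 fold change of the 9 was 0.78, and that of all genes tested was 0.01. Car2, Car3, Car4, Car12, Car13 and Car14 were called in all 14 other settings.

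**Figure D3:**
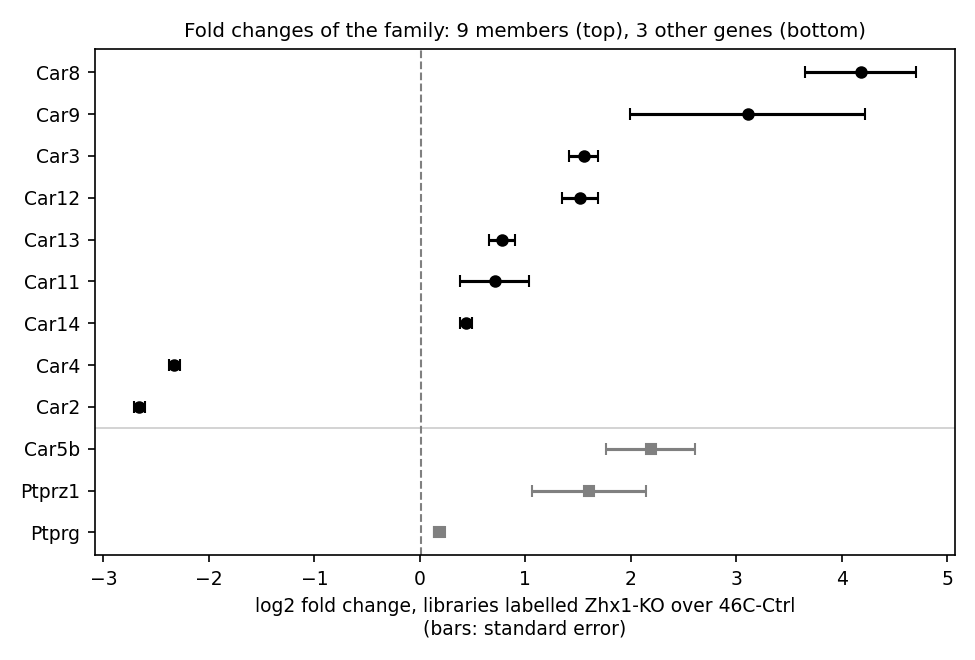
Log2 fold change (libraries labelled Zhx1-KO over 46C-Ctrl, bars: standard error) of the 9 tested members above and of 3 further tested genes of the family below, with the median of all genes tested as a dashed line. The members run from -2.66 for Car2 to 4.18 for Car8, and Car2 and Car4 are the only points left of the line.

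Summed over the 10 members, the family had 4178, 3951 and 4121 normalized counts in the libraries labelled Zhx1-KO, against 13091, 13708 and 13357 in 46C-Ctrl. The mean sum in the libraries labelled Zhx1-KO, 4083 ± 118, was 0.305 of that in 46C-Ctrl, 13386 ± 310 (SD, n = 3 each). Without Car2 and Car4, the sum of the other 8 members was 1843 ± 96.0 in the libraries labelled Zhx1-KO and 1083 ± 20.5 in 46C-Ctrl (SD, n = 3 each), a ratio of 1.70. The lower family sum thus rested on Car2 and Car4, and the summed level of the other 8 members was higher.

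Levels of different genes were compared only per kb of exon length. Car2 and Car4 together held 61.2 ± 0.97% of the per-kb level of the 10 members in the libraries labelled Zhx1-KO and 93.3 ± 0.22% in 46C-Ctrl (SD, n = 3 each). Car14 held 23.0 ± 0.37% in the libraries labelled Zhx1-KO and 4.77 ± 0.14% in 46C-Ctrl (SD, n = 3 each). The share of the related members was 2.05 ± 0.15% in the libraries labelled Zhx1-KO and 0.15 ± 0.04% in 46C-Ctrl (SD, n = 3 each). By class, the membrane-bound share was close in both groups, at 66.7 ± 1.42% in the libraries labelled Zhx1-KO and 64.2 ± 1.10% in 46C-Ctrl (SD, n = 3 each), although its leading genes differed in level.

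**Figure D4:**
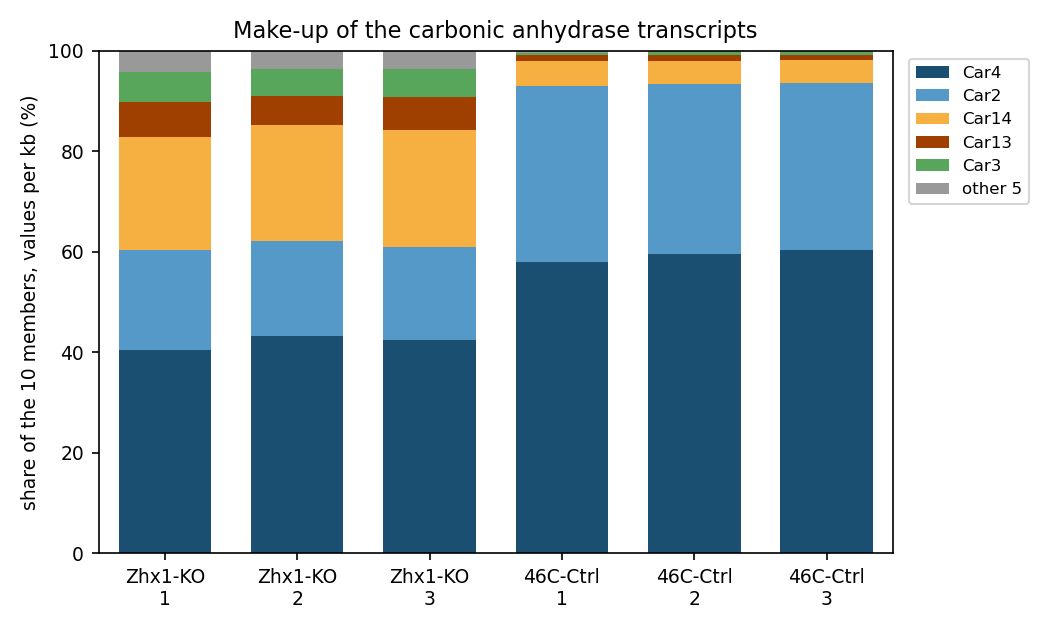
Share (%) of each carbonic anhydrase gene in the per-kb level of the 10 members, as stacked bars for the 3 libraries labelled Zhx1-KO (left) and the 3 of 46C-Ctrl (right), with the 5 least abundant members summed as other. Car4 and Car2 make up 61.2% on average in the libraries labelled Zhx1-KO and 93.3% in 46C-Ctrl.

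In the libraries labelled Zhx1-KO the per-kb order was Car4 (729.6 normalized counts per kb), Car14 (399), Car2 (333), Car13 (112), Car3 (97.0), Car8 (21.6), Car12 (20.7), Car11 (14.0) and Car9 (9.80), with Car7, which was listed at 0 in 2 libraries, last. Neighbours in this order overlapped over the libraries for Car13 and Car3, Car8 and Car12, and Car11 and Car9. In 46C-Ctrl the order was Car4 (3666 normalized counts per kb), Car2 (2104), Car14 (295), Car13 (64.9), Car3 (32.9), Car11 (8.27), Car12 (7.14), Car7, Car9 and Car8 (1.14), where Car7 and Car9 were listed at 0 in 1 and 2 libraries. There, Car11 and Car12, Car7 and Car9, and Car9 and Car8 overlapped. By exon length Car14 stood above Car2 in the libraries labelled Zhx1-KO. Per kb of coding length the mean of Car2 (1033 normalized counts per kb) stood above that of Car14 (982) there too, but their libraries overlapped. Car8 stood in the sixth place in the libraries labelled Zhx1-KO and last in 46C-Ctrl by exon length, and in the seventh place and the ninth place by coding length.

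Of 7 further family genes in the table, 3 passed the filter. These 3 were called higher in the libraries labelled Zhx1-KO, beside 25.6% of all genes tested. Car5b, a mitochondrial enzyme, had 28.2, 41.5 and 43.1 normalized counts in the libraries labelled Zhx1-KO, against 5.85, 5.18 and 12.7 in 46C-Ctrl (log2 fold change 2.19 ± 0.42, SE, limma adjusted p = 0.00334). Ptprz1, a receptor phosphatase with an outer carbonic anhydrase-like domain, had 60.5, 63.7 and 67.8 in the libraries labelled Zhx1-KO, against 33.2, 7.25 and 33.7 in 46C-Ctrl (log2 fold change 1.60 ± 0.54, SE, limma adjusted p = 0.0386). Its close relative Ptprg averaged 1577 ± 61.8 in the libraries labelled Zhx1-KO and 1386 ± 52.1 in 46C-Ctrl (SD, n = 3 each), with a log2 fold change of 0.19 ± 0.06 (SE, limma adjusted p = 0.0253). The call of Ptprz1 ended when any 1 of the libraries labelled Zhx1-KO was left out (highest limma adjusted p = 0.0962), under quantile normalization (0.0607) and without the trend (0.0748), and its log2 fold change was 0.91 without 46C-Ctrl 2. That of Ptprg ended without Zhx1-KO 1 or 2, 46C-Ctrl 2 or 46C-Ctrl 3 (highest limma adjusted p = 0.0856), without the trend (0.0685) and with the replicate block (0.0507). The related gene Car10 had 18.1, 14.2 and 16.7 normalized counts in the libraries labelled Zhx1-KO, against 0, 3.11 and 0 in 46C-Ctrl. Car15 had 0, 7.08 and 3.52 in the libraries labelled Zhx1-KO, against 9.75, 11.4 and 8.44 in 46C-Ctrl. Car10, Car15, Car5a and Car1 stayed under the filter and were not tested.

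For the 3 abundant members with the largest differences, the genes most alike over the 6 libraries were found by the root mean square difference of their log2 values, each centred on its own mean. Those most like Car2 were Dusp9 (0.0662 log2 units), Col12a1 (0.0671) and Pdlim3 (0.0677). Those most like Car4 were Zim1 (0.0459 log2 units), S100a10 (0.0490) and Foxh1 (0.0549). Those most like Car3 were Rgs17 (0.0449 log2 units), Thnsl2 (0.0565) and Kcng1 (0.0813). With 6 libraries in 2 groups, this likeness mostly follows the size of the difference between the groups.

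The other genes of CO2 and acid-base handling were described by list, from textbook roles. Of 7 tested bicarbonate transporters, 2 passed as higher and 3 as lower, beside 25.6% higher and 26.4% lower of all genes tested. The median log2 fold change was 0.32 beside 0.01 for all genes tested. The sodium-bicarbonate cotransporter Slc4a5 had 113, 111 and 106 normalized counts in the libraries labelled Zhx1-KO, against 276, 283 and 273 in 46C-Ctrl (log2 fold change -1.32 ± 0.10, SE, limma adjusted p = 3.7e-05). Slc4a4, another sodium-bicarbonate cotransporter, and Slc4a2, a chloride-bicarbonate exchanger, were also lower, with log2 fold changes of -1.02 ± 0.14 and -1.15 ± 0.12 (SE). Slc4a7, a sodium-bicarbonate cotransporter too, was higher instead, with a log2 fold change of 0.82 ± 0.07 (SE, limma adjusted p = 7.7e-05). The transporters of this list thus differed in direction.

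All 10 tested proton and lactate transporters passed the test, 6 higher and 4 lower, where 52.0% of all genes tested passed it, and the median log2 fold change of the list was 0.34. Slc16a3, the lactate exporter of glycolytic cells, had 4469, 4739 and 4201 normalized counts in the libraries labelled Zhx1-KO, against 1230, 685 and 1297 in 46C-Ctrl (log2 fold change 2.11 ± 0.22, SE, limma adjusted p = 1.5e-04). Its relative Slc16a1 averaged 6238 ± 72.9 in the libraries labelled Zhx1-KO and 14086 ± 245 in 46C-Ctrl (SD, n = 3 each), with a log2 fold change of -1.17 ± 0.04 (SE, limma adjusted p = 8.6e-07). Emb, a partner protein of such transporters, was lower, with a log2 fold change of -0.73 ± 0.05 (SE, limma adjusted p = 2.3e-05). The 6 higher calls became 3 without Zhx1-KO 1 and 2 without Zhx1-KO 2.

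The 4 tested acid-sensing receptors had 2 genes higher and 1 lower, beside 25.6% higher and 26.4% lower of all genes tested. Their median log2 fold change was 1.03. The proton-gated channels Asic2 and Asic1 had log2 fold changes of 3.52 ± 0.31 and 1.29 ± 0.12 (SE, limma adjusted p = 7.0e-05 and 8.6e-05), and the proton-sensing receptor Gpr4 had -0.86 ± 0.18 (SE, limma adjusted p = 0.00491). Of 8 tested enzymes that use bicarbonate, 5 missed the threshold, 2 passed as higher and 1 as lower. Of all genes tested 52.0% passed, and the median of the list was 0.20. Pcca, a subunit of propionyl-CoA carboxylase, had 0.65 ± 0.09 and Cad, of pyrimidine synthesis, had -0.38 ± 0.07 (log2 fold change ± SE). Acaca, the other higher gene, had 0.16 ± 0.05 (SE). Like Asic2 and Slc16a3, it lies on chromosome 11, where the median log2 fold change was 0.42. Of 2 tested CO2 and ammonia channels, Aqp1 was lower (log2 fold change -1.82 ± 0.49, SE, limma adjusted p = 0.0164, and 0.0524 without 46C-Ctrl 2) and Aqp4 did not pass.

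**Figure D5:**
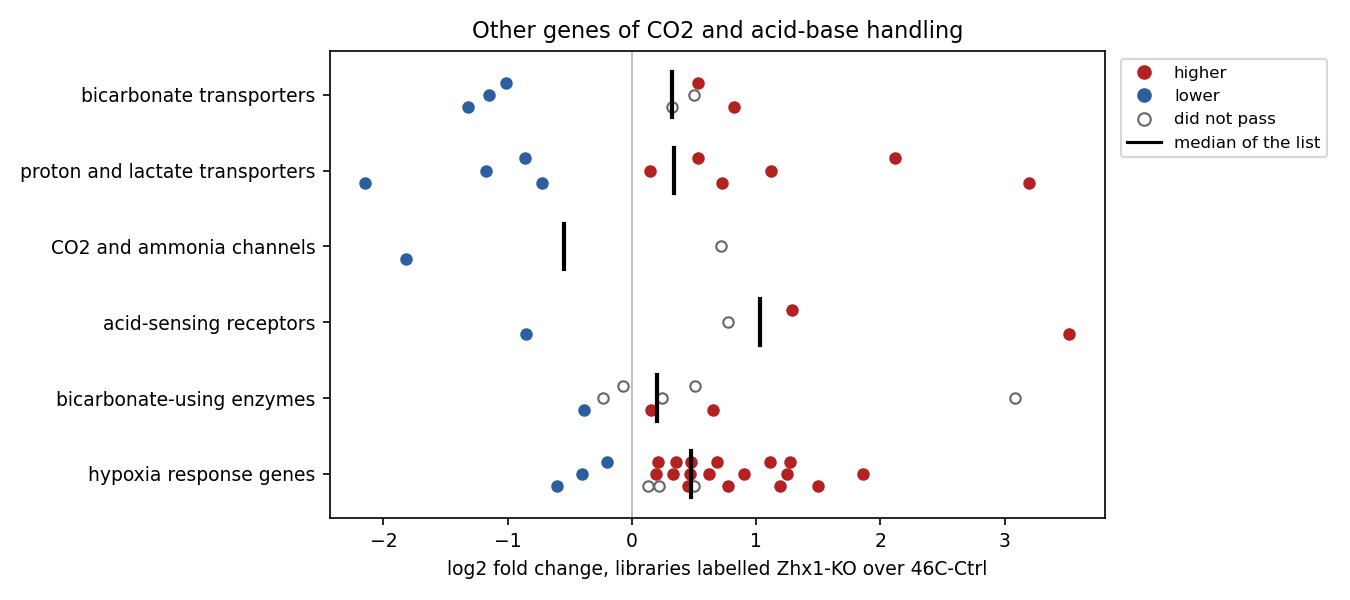
Log2 fold change (libraries labelled Zhx1-KO over 46C-Ctrl) of each tested gene in 6 lists around CO2 and acid-base handling, with red for higher, blue for lower and open circles for genes that did not pass limma's test, and a vertical bar for the median of each list. Hypoxia response genes were higher in 17 of 23 and bicarbonate transporters in 2 of 7, beside 25.6% of all genes tested.

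Of 23 tested hypoxia response genes, a list taken because Car9 is known to respond to low oxygen, 17 passed as higher and 3 as lower, beside 25.6% higher and 26.4% lower of all genes tested. The median log2 fold change of the list was 0.47, beside 0.01 for all genes tested. Pgk1, a glycolytic enzyme, averaged 43346 ± 2358 normalized counts in the libraries labelled Zhx1-KO and 18981 ± 222 in 46C-Ctrl (SD, n = 3 each), with a log2 fold change of 1.19 ± 0.05 (SE, limma adjusted p = 2.4e-06). Ddit4, an inhibitor of mTORC1 signalling, Bnip3, a mitophagy receptor, and Pdk1, which restrains pyruvate entry into mitochondria, had log2 fold changes of 1.50 ± 0.07, 1.25 ± 0.07 and 0.77 ± 0.05 (SE). Ndrg1, Bhlhe40 and Hk2, which respond to low oxygen as well, were the 3 lower genes. Oxygen level is not among the labels, and a link of this list to Car9 was not tested.

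Cell type markers were described by list too, beside 25.6% called higher and 26.4% called lower of all genes tested. Beside Car2, 15 erythroid markers summed to 392 to 413 normalized counts in the libraries labelled Zhx1-KO and 586 to 720 in 46C-Ctrl, with 5 of 7 tested markers lower and 1 higher. The defining erythroid genes Gata1, Klf1 and Alas2 were under the filter, at 16.9 normalized counts or less in every library. Beside Car4, 15 endothelial markers summed to 6408 to 6755 in the libraries labelled Zhx1-KO and 3233 to 3488 in 46C-Ctrl, with 12 higher and 1 lower, so the endothelial sum and Car4 went in opposite directions. Beside Car3, the 11 skeletal muscle markers in the table summed to 328 to 435 in the libraries labelled Zhx1-KO and 177 to 221 in 46C-Ctrl. Of 3 tested, 1 was higher, Actn3, with means of 308 in the libraries labelled Zhx1-KO and 111 in 46C-Ctrl. The higher sum rested on Actn3. Tnnt3 had a lower mean in the libraries labelled Zhx1-KO (14.1 against 52.3), the groups overlapped for Mylpf, and neither passed. Of 16 tested endoderm markers 14 were lower, with sums of 16765 to 18266 in the libraries labelled Zhx1-KO and 43603 to 49289 in 46C-Ctrl. Most of these sums came from Krt8, Krt18 and Epcam, with 46C-Ctrl means of 24023, 12691 and 3167. The lower genes include Gata4 and Gata6, whose knockout the study's introduction ties to lower cardiac genes, so this list is not of endoderm alone. Gata4 averaged 95.1 in the libraries labelled Zhx1-KO and 1609 in 46C-Ctrl, and Gata6 175 and 861. Foxa2 and Hnf4a did not pass. Of 15 neural markers 11 were higher and 2 were lower, with sums of 9977 to 10269 in the libraries labelled Zhx1-KO and 5743 to 6399 in 46C-Ctrl. Of 6 tested notochord markers 2 were higher and 2 were lower, with sums of 2612 to 2686 in the libraries labelled Zhx1-KO and 1991 to 2110 in 46C-Ctrl. The part of these cell types in the levels of the carbonic anhydrases was not tested.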

How the data were processed

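Polyadenylated RNA of 6 libraries was measured, 3 labelled Zhx1-KO and 3 of 46C-Ctrl. Per the methods and the submitters' processing notes, the authors used cutadapt 1.18 for trimming, HISAT2 2.1.0 for mapping to GRCm38 and StringTie 1.3.4d for FPKM, which were not used here. Cufflinks and DESeq2 stand in the authors' notes too. The deposited values are a signal per gene, counts that the authors divided by 1 size factor per library. In each library 100% of the values lie within 0.01 of a whole multiple of 1 step (0.880 to 1.05). Which program counted the reads was not given in the sources used here.

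Genes with a mean of at least 10 were tested on log2(value + 1) with limma 3.58.1 (R 4.3.3, mean trend, Benjamini-Hochberg adjustment over 15372 genes), and were called at an adjusted p under 0.05. A fold change of low genes on this scale depends on the pseudocount. The steps of 2 libraries are too close to 1 to take whole reads as recovered, so no count test was run. Positions and exon lengths come from GENCODE M21 on GRCm38, and promoters from RefSeq on GRCm38.p6. The fit was tested on simulated data.

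The members and lists were chosen with earlier results of these data known. The genes named are the members, the rest of the family, Zhx1, up to 4 tested genes of the smallest adjusted p per list, the nearest tested genes beside each member and the 3 genes most like each of 3 members; others were named after their values were seen. Some genes that the rule names are not reported here. Alternatives were the pseudocount, the filter, the scaling, the trend, a replicate block, gene length and leaving out each library.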

Additional observations from a re-analysis of the deposited data

How the results depend on the processing

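Members near the floor (Car7, Car8, Car9, Car11) rest on few reads. No tested member changed direction under the 14 other settings. Of 123 values of members under these settings, 119 moved by less than the residual standard deviation between libraries in the fit, which was wide for Car9. The 4 others were Car2 (-2.57), Car4 (-2.20) and Car14 (0.54) under quantile normalization and Car8 (3.29) with a pseudocount of 5. A mean of at least 50 left out Car8, Car9 and Car11, and gave 0 lower CO2 and ammonia channels and 1 higher acid-sensing receptor. Without a filter 2 acid-sensing receptors were lower. Without the trend, and with the replicate block, 1 bicarbonate-using enzyme was higher. Per kb of coding length, 4 of 10 places were kept in the libraries labelled Zhx1-KO and 6 of 10 in 46C-Ctrl. The mean of Car2 stood above that of Car14 in both groups, with overlap under the Zhx1-KO label. The cause of these changes was not tested.

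The labels do not say whether replicate numbers pair the samples. Deviations of same-numbered libraries correlated at 0.00, -0.07 and 0.00, and those of other pairs at -0.10 to 0.10. So few pairs cannot exclude a pairing. With a replicate block 3625 genes were called higher and 3749 lower, against 3940 and 4058 without it, and no call of a member was lost.

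Leaving out 1 library at a time gave 3185 to 3787 higher and 3460 to 3873 lower genes, 5 to 6 higher and 2 lower members, 2 to 4 higher proton and lactate transporters, 0 to 1 lower CO2 and ammonia channels, 1 to 2 higher and 1 to 2 lower bicarbonate-using enzymes, and 14 to 16 higher and 2 to 3 lower hypoxia response genes. Among the values of other named genes, 1025 kept their side of the threshold, 48 lost it and 8 gained it. The planned count tests were not run.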
